A study of Homo sapiens with 6 samples.

Results

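The arms of miR-199a, miR-199b and miR-214 were followed in small RNA libraries of the human osteosarcoma line U2OS. The rule took the rows of the all-samples table whose name equals one of 6 arm names, the 5p and the 3p arm of each hairpin: hsa-miR-199a-5p, hsa-miR-199a-3p, hsa-miR-199b-5p, hsa-miR-199b-3p, hsa-miR-214-5p and hsa-miR-214-3p, written without hsa in what follows. Of the 6, 5 were analysed among 1155 mature miRNAs, and miR-199b-5p was not analysed here. The rows of miR-199a-3p and miR-199b-3p held identical values in all 6 libraries, so the 5 rows gave 4 distinct profiles.

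The libraries fell into 2 groups of 3. The first carried the genotype label LINC00673 and was read, from the series' design text, as U2OS cells with a stable shRNA against LINC00673, a long intergenic non-coding RNA. The second was labelled NC. The design text names wild-type cells as the other group, while the titles of both groups start with Lv, so it is open whether NC cells carried a control construct. Every library came from the same cell line, and the number of shRNA clones and of separate cultures is not stated, so p-values rest on a spread that may be technical. LINC00673 itself was not measured in the miRNA table, and the extent of its depletion was not checked here. The comparison asks how these arms differ between LINC00673 and NC libraries.

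These miRNAs come from genes antisense to introns of the dynamin genes. MIR199A2 and MIR214 lie on DNM3OS, a non-coding transcript antisense to DNM3 that the transcription factor TWIST1 is known to switch on, whereas MIR199A1 lies within DNM2 and MIR199B within DNM1. They are best known from mesenchymal tissue: in the mouse, loss of Dnm3os disturbs growth of the skeleton, and miR-214 has been described as holding back bone formation through ATF4. Each hairpin is cut by Drosha and Dicer into a duplex of a 5p and a 3p arm, and usually one of them is retained in Argonaute. The arms target different transcripts, among them MTOR and MET for miR-199a-3p and HIF1A for miR-199a-5p.

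The mature sequences (RefSeq, GRCh38.p14, 5′ to 3′, with the seed, bases 2 to 8, in capitals) show which arms can be told apart by sequence. All 5 analysed arms were found in the RefSeq table.
miR-199a-3p: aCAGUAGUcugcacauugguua
miR-199b-3p: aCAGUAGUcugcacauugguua
miR-214-3p: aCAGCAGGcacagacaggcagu
miR-199a-5p: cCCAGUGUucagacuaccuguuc
miR-214-5p: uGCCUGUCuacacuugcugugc

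The 3p arms of miR-199a and miR-199b are the same 22 bases. A read of this arm cannot be assigned to MIR199A1, MIR199A2 or MIR199B, and the shared level is called miR-199-3p below. The miR-214-3p arm resembles it at its start only. Counted from 1 at the 5′ end, the substitutions from miR-199a-3p to miR-214-3p within the seed were U5C and U8G, and 8 of the 22 positions were the same over the whole arm. No seed was shared between miR-199-3p, miR-199a-5p, miR-214-3p and miR-214-5p. In RefSeq, miR-3129-5p has the seed of miR-199-3p, and miR-761 and miR-3619-5p have that of miR-214-3p; none of these was analysed here.

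The 2 genes of miR-199a differ outside their arms. Below, the hairpins are in lower case with the mature arms in capitals, MIR199A2 (chr1:172144535-172144644, minus strand) and MIR199A1 (chr19:10817426-10817496, minus strand).
MIR199A2: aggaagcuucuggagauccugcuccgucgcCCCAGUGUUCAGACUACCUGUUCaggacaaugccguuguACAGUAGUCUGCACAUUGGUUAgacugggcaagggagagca
MIR199A1: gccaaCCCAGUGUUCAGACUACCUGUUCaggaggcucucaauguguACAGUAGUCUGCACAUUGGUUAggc
Between the arms lie 16 bases in MIR199A2 and 18 in MIR199A1, while both arms are letter for letter the same, so the mature reads pool the 2 genes. In GENCODE release 29, MIR214 (chr1:172138798-172138907, minus strand) lies 5627 bases from MIR199A2, and both are exonic in DNM3OS (chr1:172138397-172144840). MIR199A1 and MIR199B (chr9:128244721-128244830, minus strand) overlap no annotated exon of DNM2 and DNM1.

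Values are in CPM, the reads of a miRNA scaled by the authors to a common total. CPM steps within each library gave back the reads. The denominators were 380298, 742349 and 762663 reads in LINC00673 replicates 1 to 3 and 483322, 311448 and 295567 reads in NC replicates 1 to 3. A floor of 3 reads stood at 3.93 to 10.2 CPM, and intervals below cover counting error only, since no molecular identifiers are named. CPM is a relative measure, and adapter ligation favours some sequences, so levels of different arms are not molar ratios.

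The levels of the arms spanned from among the most abundant miRNAs to the detection floor. By the mean over 6 libraries, miR-199-3p ranked 22 among 1155 miRNAs at 4901 CPM. The miR-199a-5p arm ranked 117 at 243 CPM. Both arms of miR-214 stood far lower, miR-214-5p at rank 404 with 7.88 CPM and miR-214-3p at rank 417 with 7.40 CPM, and these 2 did not differ beyond their spread. Between the other neighbours in this order, every library had the higher arm above the lower one.

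Of the abundant arm, miR-199-3p, the levels were 4410, 5962 and 5545 CPM in LINC00673 replicates 1 to 3 and 4117, 4691 and 4683 CPM in NC replicates 1 to 3. These rest on 1384 to 4426 reads per library. The groups overlapped, since LINC00673 replicate 1 lay below NC replicates 2 and 3. The LINC00673 mean was 5306 ± 803 CPM and the NC mean 4497 ± 329 CPM (SD, n = 3 each). On the log2(CPM + 1) scale, LINC00673 minus NC was 0.23, standard error 0.16 (limma adjusted p = 0.658). The 95% interval of the difference, -0.10 to 0.56, was not adjusted for the number of miRNAs. Of 12 other settings, 11 kept the sign. Those that change only the filter, the variance trend, identical rows or a replicate block cannot move the estimate. Among the settings that can, TMM scaling gave 0.33 and rescaling to the listed total 0.20. The value was 0.34 in edgeR (adjusted p = 0.393) and 0.23 in DESeq2. With quantile normalization the difference was -0.04, so the direction is not settled. The spread between LINC00673 libraries, a coefficient of variation of 15.1%, was larger than the 1.83% that counting alone gives.

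The rows of both names held the same read number in every library. Whether each row lists all reads of the shared sequence or a part of them was not determined, so its level, the summed level and the arm ratio below are those of 1 row. Among rows above 0 in every library, 5 sets with 11 rows in all were identical in this way. The share of MIR199B in these reads cannot be told apart from that of the miR-199a genes.

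The partner arm, miR-199a-5p, was lower in every LINC00673 library than in every NC library. Its levels were 181.4, 199.4 and 200.6 CPM in LINC00673 replicates 1 to 3, from 69, 148 and 153 reads. In NC replicates 1 to 3 they were 319, 299 and 261 CPM, from 154, 93 and 77 reads. The LINC00673 mean was 194 ± 10.7 CPM and the NC mean 293 ± 29.5 CPM (SD, n = 3 each), so that the NC mean was 1.51 times the LINC00673 mean. The log2 difference was -0.59 with a standard error of 0.22 and a 95% interval of -1.05 to -0.13, and it did not pass after adjustment over the 810 miRNAs tested (limma unadjusted p = 0.0140, adjusted p = 0.252). On the recovered reads it did not pass in edgeR (log2 difference -0.49, adjusted p = 0.343) or in DESeq2 (-0.61, adjusted p = 0.115).

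That pattern of no overlap was common in these libraries. All LINC00673 libraries lay below all NC libraries in 7.65% of the 810 miRNAs, and the groups were separate in either direction in 15.4%. Of the 4 distinct profiles, 1 was separate. The 95% Clopper-Pearson intervals of the libraries nearest to each other met, at 170 to 235 CPM for LINC00673 replicate 3 and 206 to 326 CPM for NC replicate 3. Those of LINC00673 replicate 1, 141 to 230 CPM, and replicate 2, 169 to 234 CPM, also met that of NC replicate 3. The coefficient of variation was 5.54% in LINC00673 and 10.1% in NC libraries, against 9.45% and 9.94% from counting alone, so the libraries of a group differed by about their counting error or less.

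**Figure D1:**
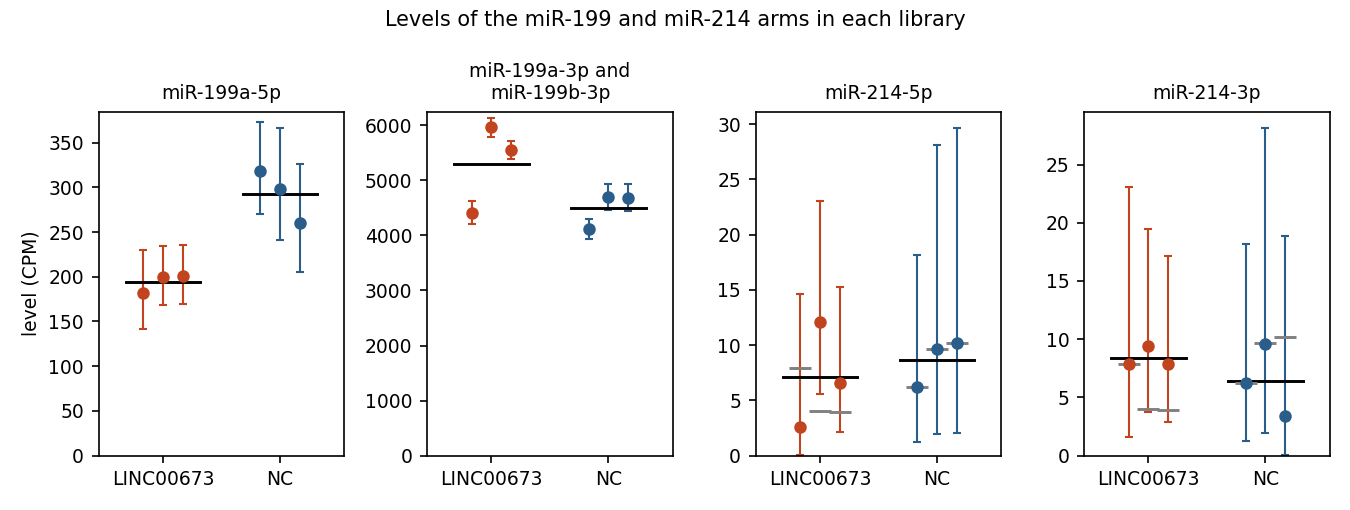
Levels (CPM) of the 4 distinct profiles in LINC00673 (red) and NC (blue) libraries, replicates 1 to 3 from left to right, each panel on its own scale from 0; points are libraries, bars the 95% Clopper-Pearson interval, black lines group means, and grey dashes in the miR-214 panels the floor of 3 reads. The miR-199a-5p points of LINC00673 (181.4 to 200.6 CPM) lie below those of NC (261 to 319 CPM), while the other panels overlap.

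The arms of miR-214 were close to the floor in both groups. The read numbers of miR-214-3p were 3, 7 and 6 in LINC00673 replicates 1 to 3 and 3, 3 and 1 in NC replicates 1 to 3. As CPM these are 7.89, 9.43 and 7.87 against 6.21, 9.63 and 3.38. The groups overlapped and the log2 difference was 0.43 with a 95% interval of -0.95 to 1.81 (limma adjusted p = 0.911). For miR-214-5p the read numbers were 1, 9 and 5 in LINC00673 and 3, 3 and 3 in NC libraries, or 2.63, 12.1 and 6.56 against 6.21, 9.63 and 10.2 CPM. LINC00673 replicates 1 and 2 held the lowest and the highest value of all 6 libraries, and the log2 difference was -0.42 with a 95% interval of -1.84 to 1.01 (limma adjusted p = 0.916). A difference in miR-214 was not detectable at this depth. DESeq2 gave no adjusted p for either arm.

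Although MIR214 and MIR199A2 lie on the same host transcript, their arms were far apart in level. The miR-199-3p level was 487 to 1385 times that of miR-214-3p in single libraries, where the highest ratio, in NC replicate 3, rests on 1 read of miR-214-3p. The miR-199-3p reads also come from MIR199A1 and MIR199B, whose share cannot be told apart here. The log2 ratio of miR-214-3p to miR-199-3p, with 1 CPM added to each, was -9.13 ± 0.17 in LINC00673 and -9.34 ± 0.66 in NC libraries (SD, n = 3 each, two-sided exact permutation p = 0.9). The smallest p that 3 against 3 libraries allow is 0.1.

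The strand opposite MIR214 carries MIR3120 (chr1:172138808-172138888, plus strand), in an intron of DNM3. Its 3p arm is shown because it is the exact reverse complement of 21 bases of miR-214-5p, with the seed in capitals.
miR-3120-3p: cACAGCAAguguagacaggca
The miR-3120-3p row held 0 reads in all LINC00673 libraries, and 2, 0 and 1 reads in NC replicates 1 to 3. These values are under the floor of 3 reads in every library. In the dynamin genes, miR-4748 from DNM2 was also listed, with 1 read in LINC00673 replicate 2 and 0 in the other libraries. Products of MIR638, MIR6793 and MIR3154, the remaining miRNA genes annotated within DNM1, DNM2 and DNM3, were not analysed here.

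**Figure D2:**
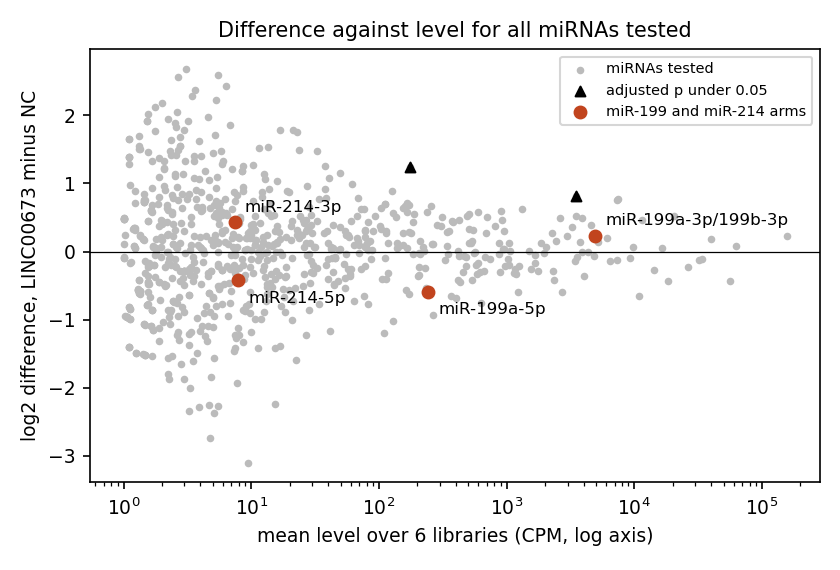
Log2 difference (LINC00673 minus NC, limma on log2(CPM + 1)) against the mean level over 6 libraries on a log axis, for the 810 miRNAs tested; red points are the miR-199 and miR-214 arms and black triangles the 2 miRNAs with an adjusted p under 0.05. The red points lie within the cloud of all miRNAs at their level, and the cloud widens towards low levels, where both miR-214 arms lie.

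None of the 5 rows passed limma, where 0.247% of the 810 miRNAs passed (2 higher and 0 lower). At an unadjusted p under 0.05, miR-199a-5p alone among the 4 profiles was counted, against 11.1% of all miRNAs. In edgeR, 0 of the 5 rows passed, against 2.72% of all miRNAs, and in DESeq2 0 of the 3 rows with an adjusted p passed, against 3.10% of 323 miRNAs. The summed level of the arms, with the shared 3p arm counted once, was 4602, 6183 and 5760 CPM in LINC00673 replicates 1 to 3 and 4448, 5009 and 4957 CPM in NC replicates 1 to 3. The means were 5515 ± 819 against 4805 ± 310 CPM (SD, n = 3 each, two-sided exact permutation p = 0.3). This sum follows miR-199-3p, and the difference of 710 CPM came to 376 CPM without LINC00673 replicate 2 and to 1167 CPM without LINC00673 replicate 1.

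The ratio of the miR-199a arms does not depend on the CPM denominator, since both are read in the same library. The 3p arm dominated throughout, and more so in LINC00673 libraries. The 5p arm took 3.95%, 3.24% and 3.49% of miR-199a reads in LINC00673 replicates 1 to 3 and 7.18%, 5.98% and 5.27% in NC replicates 1 to 3. Every LINC00673 share lay below every NC share, with means of 3.56 ± 0.36% and 6.15 ± 0.97% (SD, n = 3 each). The intervals of the nearest libraries met, at 3.09% to 4.97% for LINC00673 replicate 1 and 4.18% to 6.54% for NC replicate 3 (95% Clopper-Pearson). The denominator of this share includes 3p reads of miR-199b, so it is not the arm usage of 1 hairpin.

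**Figure D3:**
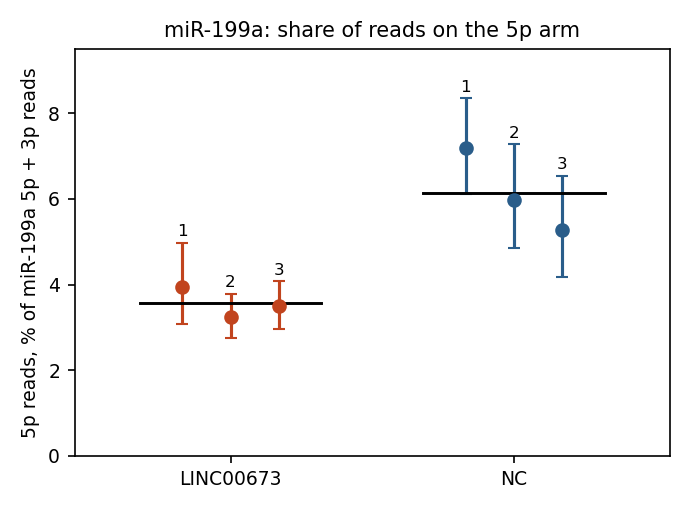
Share of the 5p arm (percent, axis from 0) in the reads of miR-199a-5p and miR-199a-3p together, in each LINC00673 (red) and NC (blue) library; bars are 95% Clopper-Pearson intervals, black lines group means and numbers replicates. The LINC00673 shares lie between 3.24% and 3.95% and the NC shares between 5.27% and 7.18%.

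Over all hairpin names with both arms at a mean of at least 1 CPM, 184 in all, the log2 ratio of 5p to 3p was compared with limma. For miR-199a it was -4.76 ± 0.15 in LINC00673 and -3.94 ± 0.24 in NC libraries (SD, n = 3 each). The difference of -0.82 had a standard error of 0.22 and a 95% interval of -1.34 to -0.30, with an unadjusted p of 0.00717, rank 5 of the 184, and a limma adjusted p of 0.223. With a trend of variance on level it thus exceeded the spread between libraries but did not pass the adjustment. Without that trend the standard error was 0.33 and the unadjusted limma p 0.0501 (adjusted p = 0.542). In limma 0 of the 184 ratios passed and 18 (9.78%) had an unadjusted p under 0.05. In edgeR on the reads of both arms 0 passed too, with a log2 difference of -0.83 for miR-199a (adjusted p = 0.518). A ratio lower in all LINC00673 libraries than in all NC libraries was seen in 7.07% of the 184 names, and separate groups in either direction in 13.6%.

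Depth moved with the groups in part, since LINC00673 replicates 2 and 3 were the deepest libraries, with 742349 and 762663 reads, and held the lowest 5p shares. Within NC, the deepest library had the highest share. The part of depth in the arm ratio was not tested.

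For miR-214 the arms were near balance. The 5p arm took 1 of 4, 9 of 16 and 5 of 11 reads in LINC00673 replicates 1 to 3 and 3 of 6, 3 of 6 and 3 of 4 reads in NC replicates 1 to 3. The intervals of single libraries spanned 0.631% to 99.4% over the 6 libraries, so the ratio is all but undetermined at this depth. The log2 ratio of 5p to 3p differed by -0.85 with a 95% interval of -2.70 to 1.01 (limma adjusted p = 0.809).

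**Figure D4:**
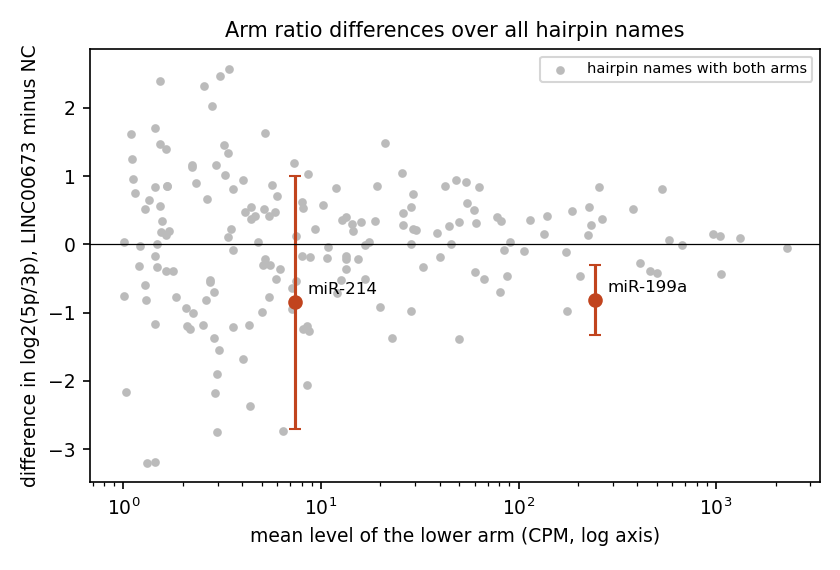
Difference between groups in log2(5p/3p), with 1 CPM added to each arm, against the mean level of the less abundant arm (log axis), for 184 hairpin names with both arms; red points with bars are miR-199a and miR-214 with their 95% limma intervals. The interval of miR-199a, -1.34 to -0.30, lies below 0 and that of miR-214, -2.70 to 1.01, spans it.

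Among the 26 hairpin names with both arms at a mean of at least 100 CPM, a limit set after the values were seen, miR-199a was one of the most 3p-dominated. Its log2 ratio over all libraries, -4.35, was the fourth lowest, between miR-151a at -4.41 and miR-221 at -4.02, both named for their place in this order and not tested against it. The 3p row of miR-199a also holds the sequence of miR-199b-3p, so this place is not that of a single hairpin. The miR-199a difference between groups was the second lowest of these 26. The lowest belonged to miR-92b, at -0.98 (limma adjusted p = 0.477), named here because of its value. Differences of similar size in the other direction were those of miR-27a at 0.83 and miR-100 at 0.81, also named because of their values. By absolute size, the difference of miR-199a ranked 67 among all 184 names.

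The profile of miR-199-3p over the 6 libraries did not follow that of its partner arm. Pearson's r between log2(CPM + 1) of miR-199a-3p and miR-199a-5p was -0.56 over 6 libraries, which share their CPM denominators. The 5 miRNAs most like miR-199-3p, among 202 others with a mean of at least 50 CPM, were miR-21-3p (r = 0.98), miR-25-5p (0.97), miR-26a-5p (0.91), miR-381-3p (0.91) and miR-7-1-3p (0.90), against a median of 0.24 over the 202. The levels of miR-21-3p were 1906, 2953 and 2672 CPM in LINC00673 replicates 1 to 3 and 1893, 2061 and 2162 CPM in NC replicates 1 to 3. As with miR-199-3p, LINC00673 replicates 2 and 3 stood highest and LINC00673 replicate 1 lay within the NC range.

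Most like miR-199a-5p were miR-16-5p (r = 0.97), miR-101-3p (0.96), let-7i-5p (0.94), miR-218-5p (0.93) and miR-34a-5p (0.93), against a median of -0.23 over the same 202. All 5 were lower in every LINC00673 library than in every NC library, a pattern that the choice by likeness favours. The levels of miR-218-5p, an osteoblast-related miRNA of similar abundance to miR-199a-5p, were 218, 334 and 313 CPM in LINC00673 replicates 1 to 3 and 519, 462 and 369 CPM in NC replicates 1 to 3. No member of either group of 5 passed limma (adjusted p = 0.156 to 0.815). In edgeR miR-26a-5p passed, against 2.72% of 810 miRNAs. DESeq2 passed miR-101-3p, let-7i-5p and miR-34a-5p, against 3.10% of 323 miRNAs. Choice by likeness to miR-199a-5p, whose groups were separate, favours such calls.

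The mesenchymal name of these arms was set against other markers. Of 16 mesenchymal and fibroblast miRNAs, 14 were tested, 0 passed limma and 2, miR-221-3p and miR-31-5p, passed edgeR as higher, against 2 in limma and 15 in edgeR as higher among all 810 miRNAs. Of the 14, 11 had a log2 difference above 0, with a median of 0.25, against 431 of 810 and a median of 0.06 over all miRNAs. Their summed level was 205081 to 231234 CPM in LINC00673 and 156370 to 225712 CPM in NC libraries, most of it miR-21-5p. The others most abundant were miR-221-3p, miR-125b-5p and miR-100-5p. Chosen after their values were seen, miR-143-3p, a marker of fibroblasts and smooth muscle, was at 18.4 to 45.9 CPM, and miR-145-5p, from the same cluster, at 0 to 5.26 CPM. With miR-214 near the floor as well, the arms behaved unevenly as mesenchymal markers: miR-199-3p was abundant and miR-214 was not.

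Of 10 bone and cartilage miRNAs, 9 were tested and 0 passed limma, while edgeR passed 1 as higher (miR-26a-5p) and 1 as lower (miR-29b-3p), against 15 higher and 7 lower of 810. Of the 9, 3 were above 0, with a median of -0.03, against 431 of 810 and 0.06 over all miRNAs. The most abundant were miR-29a-3p, miR-29b-3p, miR-196a-5p and miR-26a-5p. Of the 3 hypoxia and TWIST1 related miRNAs, of which miR-10b-5p is also on the mesenchymal list, 0 passed limma or edgeR. The TWIST1-induced miR-10b-5p was at 526, 519 and 521 CPM in LINC00673 and 346, 572 and 551 CPM in NC libraries, so the groups overlapped. Hypoxia-induced miR-210-3p was at 211 ± 6.57 against 157 ± 25.1 CPM (SD, n = 3 each, limma adjusted p = 0.509), and miR-210-5p averaged 3.08 CPM in LINC00673 libraries, under the floor, while the NC libraries all listed it at 0. Both were higher in every LINC00673 library than in every NC library, as were 7.78% of the 810 miRNAs. Of 20 markers of other lineages, 13 were tested and 0 passed limma or edgeR. The most abundant, endothelial miR-126-3p and miR-126-5p, neural miR-9-5p and blood cell miR-142-3p, were above 0 in every library, miR-126-3p at 2987 to 5437 CPM. So were miR-142-5p, the muscle miRNA miR-206 at 34.2 to 70.6 CPM and the liver miRNA miR-122-5p at 9.63 to 20.3 CPM. The other 7 listed markers, among them epithelial miR-200c-3p at 0 to 13.5 CPM, were at 0 in at least 1 library. The blood markers miR-223-3p, miR-451a, miR-144-3p and miR-150-5p, neural miR-124-3p and epithelial miR-429 were not analysed here. The summed level of this list was 5951 to 7243 CPM in LINC00673 and 6459 to 8874 CPM in NC libraries, and its part in the miR-199a-5p values was not tested.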

How the data were processed

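Small RNA libraries of 3 LINC00673 and 3 NC samples were prepared from TRIzol RNA with a NEBNext small RNA kit, per the labels' protocols. The authors deposited 1 table of CPM values per mature miRNA and library. Per the submitters' processing notes, the genome build was hg38. The aligner, the counter, the miRBase version and how reads with several matches were treated are not given in the sources. Whole reads were recovered from the CPM steps: 100% of values above 0 lay within 0.1 read of a whole number. The listed miRNAs held 211242 to 543144 reads per library.

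Levels on the log2(CPM + 1) scale were tested with limma 3.58.1 under R 4.3.3, two-sided and with a trend of variance on level. The 810 miRNAs averaging 1 CPM or more were tested, with Benjamini-Hochberg adjusted p-values called under 0.05. Arm ratios were tested likewise over 184 hairpin names, with the mean level of both arms as the trend. Single values per library were compared with exact permutation tests; a planned ratio of miR-199a-5p to miR-199b-5p was not analysed here. For low miRNAs this scale understates fold changes. On the recovered reads, edgeR 4.0.16 (quasi-likelihood, TMM, 22 miRNAs past the threshold) and DESeq2 1.42.0 (10) were alternatives. The edgeR test of arm ratios and edgeR with libraries left out were chosen after seeing the data. The scripts were tested on simulated data.

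Named were all members, miRNAs sharing a seed or a dynamin gene with them, the 4 most abundant of each list, and the 5 miRNAs most correlated with each miR-199a arm. Outside this rule, and after their values were seen, miR-31-5p, miR-143-3p, miR-145-5p, miR-200c-3p, miR-142-5p, miR-206, miR-122-5p and the hairpins miR-92b, miR-151a, miR-221, miR-27a and miR-100 were named. The members and lists were chosen with earlier results of these data known. Sequences are from RefSeq (GRCh38.p14) and gene positions from GENCODE release 29, on the same assembly as hg38.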

Additional observations from a re-analysis of the deposited data

How the results depend on the processing

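No arm and no arm ratio crossed the threshold under any setting run. The log2 difference of miR-199a-5p was -0.66 to -0.48 over 12 other settings and -0.67 to -0.52 with 1 library left out (limma adjusted p = 0.109 to 0.632). The miR-199a arm ratio differed by -0.83 to -0.81 over 7 settings and by -0.93 to -0.69 with 1 library left out (limma adjusted p = 0.153 to 0.755). Changes of the filter or variance trend, merged identical rows and the replicate block cannot move these estimates, only their p-values. At these levels a pseudocount hardly moves the arm ratio, so its narrow range over settings was largely fixed in advance. Without the trend, miR-199a-5p had an unadjusted limma p of 0.0714 (adjusted p = 0.530). With quantile normalization miR-199-3p turned to -0.037, and with 1 library left out it was 0.14 to 0.36. Leaving out 1 library gave 0.10 to 0.74 for miR-214-3p and -1.21 to -0.40 for the miR-214 arm ratio in limma. For miR-214-5p, leaving out 1 library gave -0.86 to 0.070 in limma and -0.56 to 0.22 in edgeR (0.22 and 0.037 without LINC00673 replicates 1 and 3, 0.062 and 0.127 without NC replicates 2 and 3). In limma its sign turned without LINC00673 replicate 1. The log2 ratio of miR-214-3p to miR-199-3p, compared as a plain difference of group means, differed by 0.20 over all libraries. With 1 library left out this difference was -0.16 to 0.48, and it turned without NC replicate 3. The cause of these turns was not tested. The summed level differed by 863 to 1519 CPM over 3 other settings, of which the highest counts the shared 3p arm under both names. The miR-214 arms fell below a mean of 10 CPM and have no value under that filter. The count of miRNAs past the threshold, 2, came to 0 with a pseudocount of 0.5, a mean of at least 10 CPM, quantile normalization, rescaling to the listed total or limma without the trend, to 8 with a pseudocount of 5, 11 with no filter, 22 in edgeR and 10 in DESeq2. With 1 library left out it was 0 each time in limma and 0 to 49 in edgeR (15 without NC replicate 1). The replicate block gave 2 miRNAs, -0.59 for miR-199a-5p (limma adjusted p = 0.266), 0.23 for miR-199-3p, 0.43 for miR-214-3p, -0.42 for miR-214-5p, -0.82 for the miR-199a arm ratio (limma adjusted p = 0.425) and -0.85 for that of miR-214. In this balanced design a block cannot move an estimate, so only the p-values and the count could change. Deviations of same-numbered libraries correlated at 0.03, 0.07 and 0.01, so the numbers were not taken as pairs, and not every library correlated best with its own number. Both miR-214 arms rest on 1 to 9 reads per library.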
